A study of Mus musculus with 6 samples.

Results

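The genes described here are 40 genes of mitosis and the spindle, taken by symbol from a table of 39174 gene identifiers. They are the cyclins and activators of the G2/M transition, the mitotic kinases, spindle and kinetochore proteins, the spindle checkpoint, the machinery of anaphase and cytokinesis, and Foxm1 and Mki67, which follow proliferation. All 40 were found, and all 40 passed the filter on low values, which asked that the 6 libraries average 1 FPKM or more. They are defined by symbol and function, and the list was drawn up with earlier results of these data known. RNA was sequenced from MLO-Y4 cells, an osteocyte-like mouse line, which here means that all cultures came from 1 immortalized line kept in growth medium. The flow group is 3 cultures that received oscillating fluid flow for 2 h at a shear of 10 dyn/cm² and were harvested 2 h after the flow had ended. The non-flow control group is 3 sham-treated cultures collected in parallel. All cultures were seeded on collagen-coated glass 48 h before flow and were about 60% confluent at the time of flow. The study asked which transcripts respond to flow in osteocyte-like cells.

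Cells pass from G2 into mitosis when cyclin B binds and activates CDK1, and they leave it when the anaphase-promoting complex (APC/C) marks cyclin B and securin for degradation. Between these steps the Aurora and Polo-like kinases build the spindle, the kinetochore proteins attach chromosomes to it, and the spindle checkpoint holds the APC/C back until every chromosome is attached. Most of these genes are transcribed periodically. They are silent or low in resting cells and peak in G2 and M, under the MuvB complex, B-MYB and FOXM1. Osteocytes in bone do not divide, whereas MLO-Y4 cells proliferate in culture.

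The promoters of these genes carry a shared sequence pattern that the choice of genes did not use. The cell cycle genes homology region (CHR) is a short element through which MuvB complexes act on genes of G2 and mitosis, and it usually lies close to the transcription start with CCAAT boxes, bound by NF-Y, upstream of it. RefSeq promoter windows of build GRCm38.p6, from 250 bases before to 50 bases after the gene start, were available for 33 of the 40 genes, and Aurkb, Ccna2, Cdc25c, Foxm1, Incenp, Kif20a and Tpx2 had no entry. The 9 sequences below are the last 120 bases before the start of genes whose levels are described further on. They were chosen to show how the elements are placed, including a promoter without the CHR letters that were searched for. Each is written 5′ to 3′ on the strand of the gene. Capitals mark the CHR letters (TTTGAA or TTCGAA) and the NF-Y letters (CCAAT), on either strand, so that ATTGG and TTCAAA are the same letters read on the other strand.
Cdk1 (chr10:69352913-69353032, minus strand): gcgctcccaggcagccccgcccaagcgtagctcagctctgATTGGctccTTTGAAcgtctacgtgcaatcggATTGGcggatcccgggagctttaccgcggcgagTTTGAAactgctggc
Ccnb2 (chr9:70421555-70421674, minus strand): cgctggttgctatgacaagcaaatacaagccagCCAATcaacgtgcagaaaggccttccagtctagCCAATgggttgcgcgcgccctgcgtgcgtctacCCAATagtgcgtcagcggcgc
Ccnb1 (chr13:100786487-100786606, minus strand): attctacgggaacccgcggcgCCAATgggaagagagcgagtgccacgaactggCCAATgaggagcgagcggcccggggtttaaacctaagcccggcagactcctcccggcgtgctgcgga
Ccnf (chr17:24251410-24251529, minus strand): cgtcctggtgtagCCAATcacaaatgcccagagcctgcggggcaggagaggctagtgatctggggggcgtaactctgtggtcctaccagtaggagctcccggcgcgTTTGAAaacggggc
Cdc20 (chr4:118437344-118437463, minus strand): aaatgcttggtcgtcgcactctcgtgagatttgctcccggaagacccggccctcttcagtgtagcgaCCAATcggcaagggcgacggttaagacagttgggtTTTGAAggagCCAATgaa
Top2a (chr11:99024190-99024309, minus strand): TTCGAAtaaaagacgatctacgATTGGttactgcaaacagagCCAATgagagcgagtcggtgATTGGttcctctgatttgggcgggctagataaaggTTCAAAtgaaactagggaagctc
Kif11 (chr19:37376262-37376381, plus strand): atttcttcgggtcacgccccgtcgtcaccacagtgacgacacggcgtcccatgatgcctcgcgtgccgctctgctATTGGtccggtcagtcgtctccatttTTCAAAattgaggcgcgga
Prc1 (chr7:80294356-80294475, plus strand): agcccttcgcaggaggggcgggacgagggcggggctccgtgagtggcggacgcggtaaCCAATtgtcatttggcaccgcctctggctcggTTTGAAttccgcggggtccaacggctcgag
Ube2c (chr2:164769809-164769928, plus strand): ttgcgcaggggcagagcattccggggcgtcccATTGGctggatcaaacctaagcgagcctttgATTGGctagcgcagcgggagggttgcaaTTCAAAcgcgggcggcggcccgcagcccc

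In Cdk1, the kinase of mitotic entry, 1 CHR stretch began at position -15, counted from the gene start, and an inverted CCAAT box began at -48. Cdc20, the activator of the APC/C, had CHR letters at -18, with CCAAT boxes on both sides of them. Ccnb2 had 3 CCAAT boxes in the stretch shown, at -87, -54 and -21, and its nearest CHR letters began at position 5 after the start. Ccnb1 had 2 CCAAT boxes, at -99 and -67, and neither TTTGAA nor TTCGAA in the window. Its stretch shown also holds tttaaa, letters that were not searched for. Top2a, Kif11 and Ube2c carried the CHR letters nearest to their start on the opposite strand, at -23 in Top2a, -19 in Kif11 and -29 in Ube2c.

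Over the 33 genes with a window, TTTGAA was present on either strand in 24 (72.7%), against 20.2% of the 27025 genes in the promoter table. The rarer TTCGAA was present in 4 (12.1%), against 1.8%. One or the other was present in 26 (78.8%), against 21.7%, and within 50 bases of the start in 24 (72.7%), against 6.1%. That distance was chosen after the positions had been seen. CCAAT was present in 25 of 33 (75.8%), against 41.1% of all genes, and 2 or more CCAAT boxes in 18 (54.5%), against 13.3%. CHR letters and CCAAT occurred together in 23 (69.7%), against 8.6%. E2F letters, which mark many genes of DNA replication, were found in few windows: TTCCCGC was present in 0 of the 33 windows, against 5.3% of all genes, and TTGGCGC in 4 (12.1%), against 2.8%. TTGGCGC can share bases with an inverted CCAAT box (ATTGG). The windows with neither TTTGAA nor TTCGAA were those of Birc5, Ccnb1, Cenpe, Mad2l1, Nuf2, Nusap1 and Pttg1. Other forms of the CHR were not searched for. A match of letters is a description of the sequence and does not show binding.

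**Figure D1:**
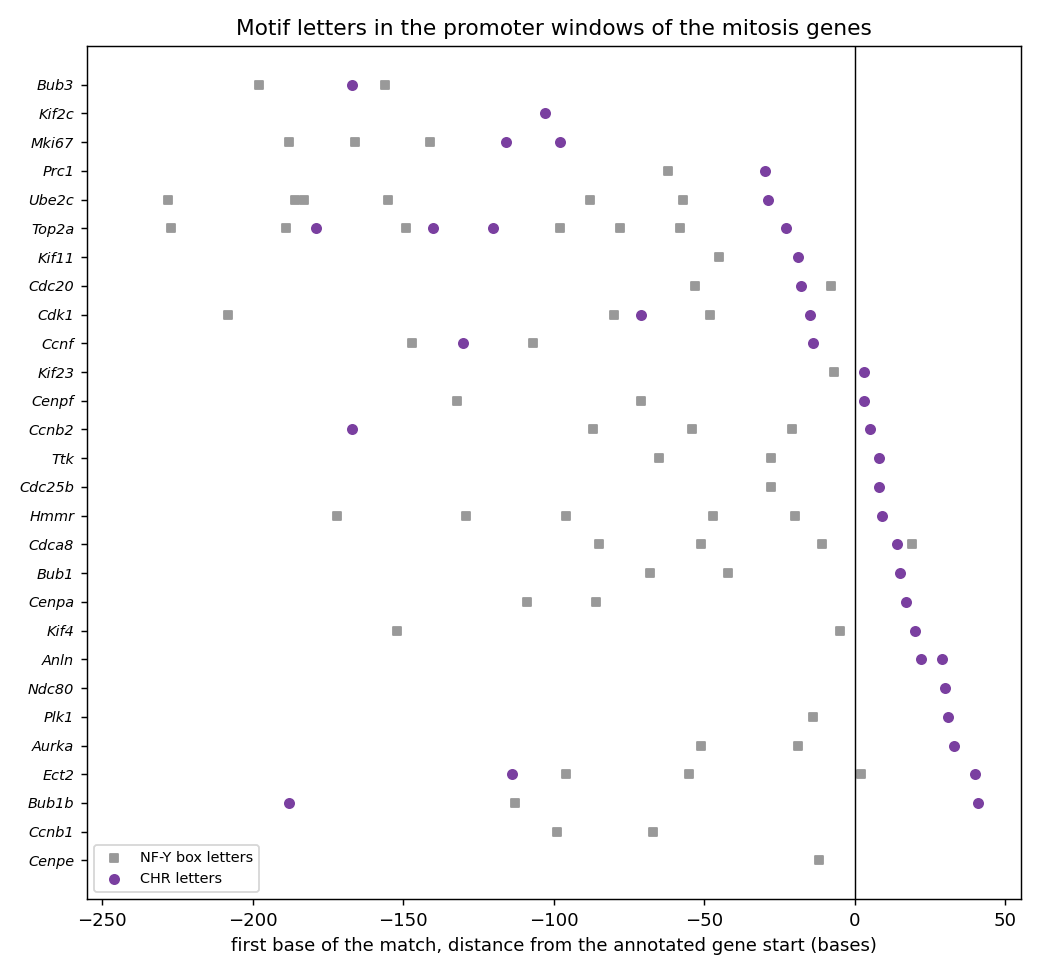
Position of CHR letters (circles, TTTGAA or TTCGAA) and NF-Y letters (squares, CCAAT), on either strand, in 1 promoter window for each gene that has any of them; the x axis is the distance in bases of the first base of a match from the annotated gene start, marked by the vertical line. In 24 of the 33 genes with a window a CHR match lies within 50 bases of the start, when all windows of a gene are counted. For Bub3 that match, at -43, is in a window that is not drawn. The squares lie mostly upstream of the start.

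The mitosis genes were well expressed in both groups. Levels are given in FPKM, fragments normalized for transcript length and library size, as the authors deposited them. The value is per length, so levels of different genes can be compared. Over the 40 genes the median of the group means was 36.3 FPKM in flow and 35.4 FPKM in non-flow controls, against a median level of 15.5 FPKM over all 11957 genes tested. None was listed at 0 in any library. The lowest single value was 8.19 FPKM, for Cdc25c in control 2, and the highest was 359.5 FPKM, for Cdk1 in flow 1. Cdk1, Top2a, Birc5, Ube2c and Ccna2 averaged at least 100 FPKM over the 6 libraries, and 9 genes averaged less than 20 FPKM. Partner proteins did not have equal transcript levels. Nuf2, which forms a dimer with Ndc80 at the kinetochore, had 1.77 ± 0.126 times the level of Ndc80 in flow and 1.73 ± 0.0231 times in controls (SD, n = 3 each). Birc5 (survivin) had 4.09 ± 0.545 times the level of its partner Incenp in flow and 3.55 ± 0.147 times in controls.

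**Figure D2:**
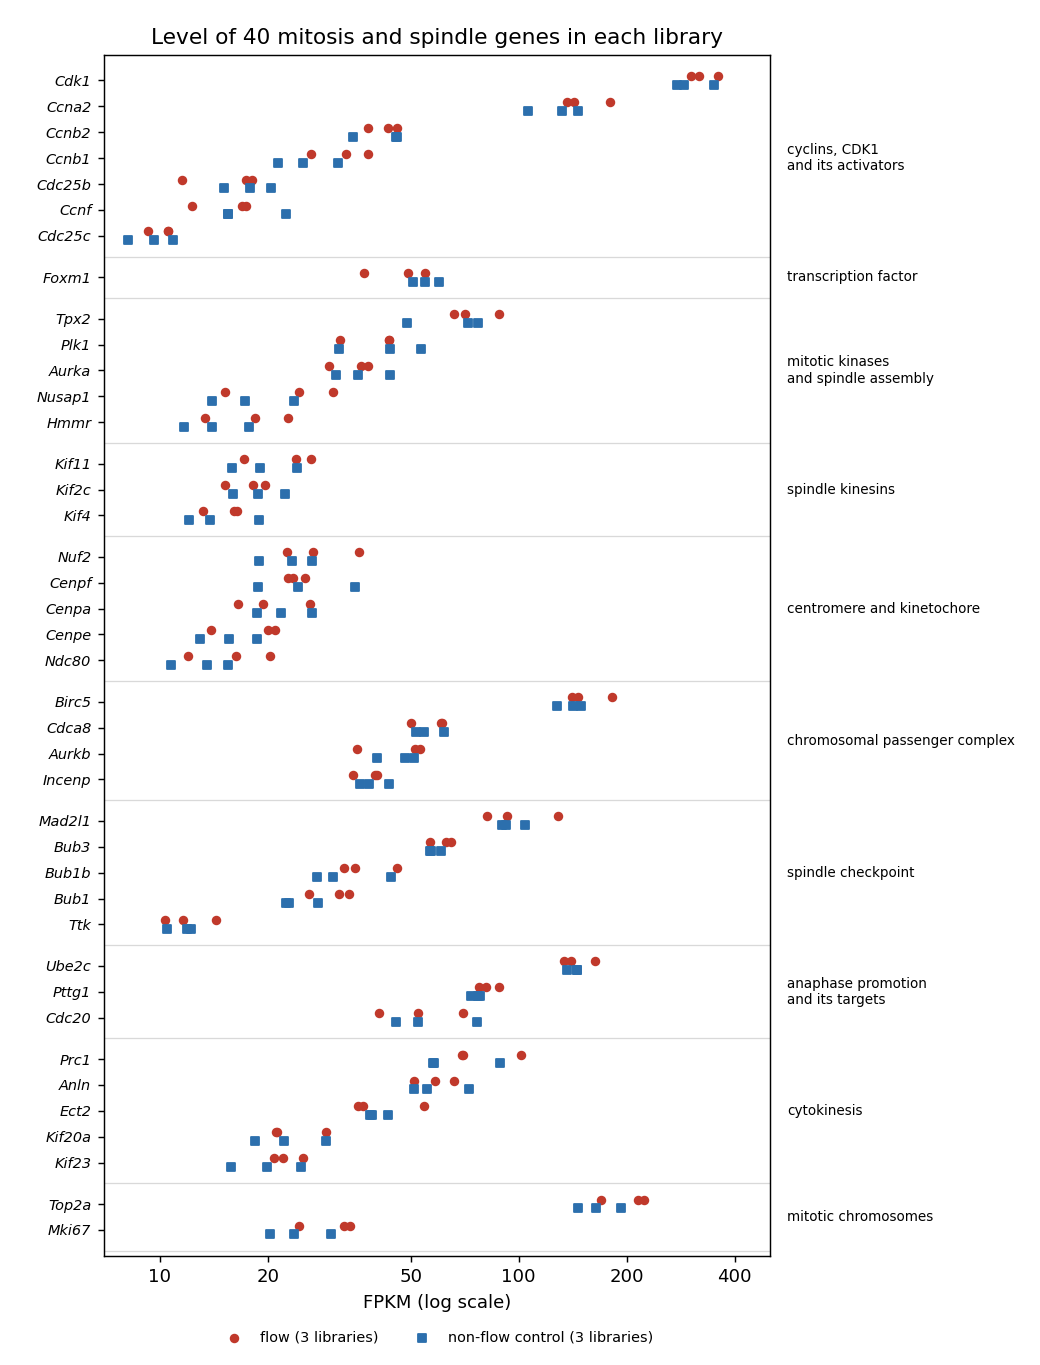
FPKM on a log axis of each of the 40 genes, grouped by role, in the 3 flow libraries (circles) and the 3 non-flow control libraries (squares). Levels run between 8.19 FPKM (Cdc25c) and 359.5 FPKM (Cdk1), and for every gene the ranges of the groups overlap.

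None of the 40 genes passed the test for a difference between flow and non-flow control cells. Values were compared as log2(FPKM + 1) with limma over all genes, and a gene was called at an adjusted p under 0.05. Of the 40 mitosis genes 0 were called (limma), where 2 of the 11957 genes tested were called (0.0167%), 1 higher (0.00836%) and 1 lower in flow (0.00836%). Without adjustment 0 of the 40 had a p under 0.05, where 8.52% of all genes did, 3.70% higher and 4.82% lower in flow. In 0 of the 40 did the 3 flow values lie all above or all below the 3 controls, where this was so in 15.1% of all genes, 7.12% higher and 8% lower. The log2 fold change, flow minus control, was above 0 in 28 of 40 genes, where 48.3% of all genes were above 0. Its median was 0.07, against -0.01 over all genes. Both values hung on single libraries: without control 2, 20 of 40 were above 0 with a median of 0.00698, and without control 1, 37 were above 0 with a median of 0.16. Without flow 1 the median was 0.028, without flow 2 it was 0.12 and without flow 3 it was 0.14. In bulk RNA a change in the number of dividing cells and a change of RNA per cell cannot be told apart.

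The differences were small beside the spread between libraries of a group, taken without pairing of flow and control libraries. Log2 fold changes ran from -0.24 for Foxm1 to 0.32 for Ccnb1, and adjusted p-values were 0.559 to 0.981 (limma). The standard error was 0.09 to 0.29, with a median of 0.18, against 0.17 over all genes. The 95% interval of the log2 fold change lay within 1 unit of 0 in either direction for 39 genes and within 0.5 for 17. Nusap1 was the exception to the first, with an interval of -0.40 to 1.02. In 37 genes the range of the 3 controls on the log2 scale was wider than the difference between the group means. The exceptions were Bub1, Foxm1 and Pttg1. The highest value of a gene was 1.37 times its lowest in flow and 1.41 times its lowest in controls, in the median gene. These intervals leave room for changes of the sizes shown, so the test does not show that the levels were equal.

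**Figure D3:**
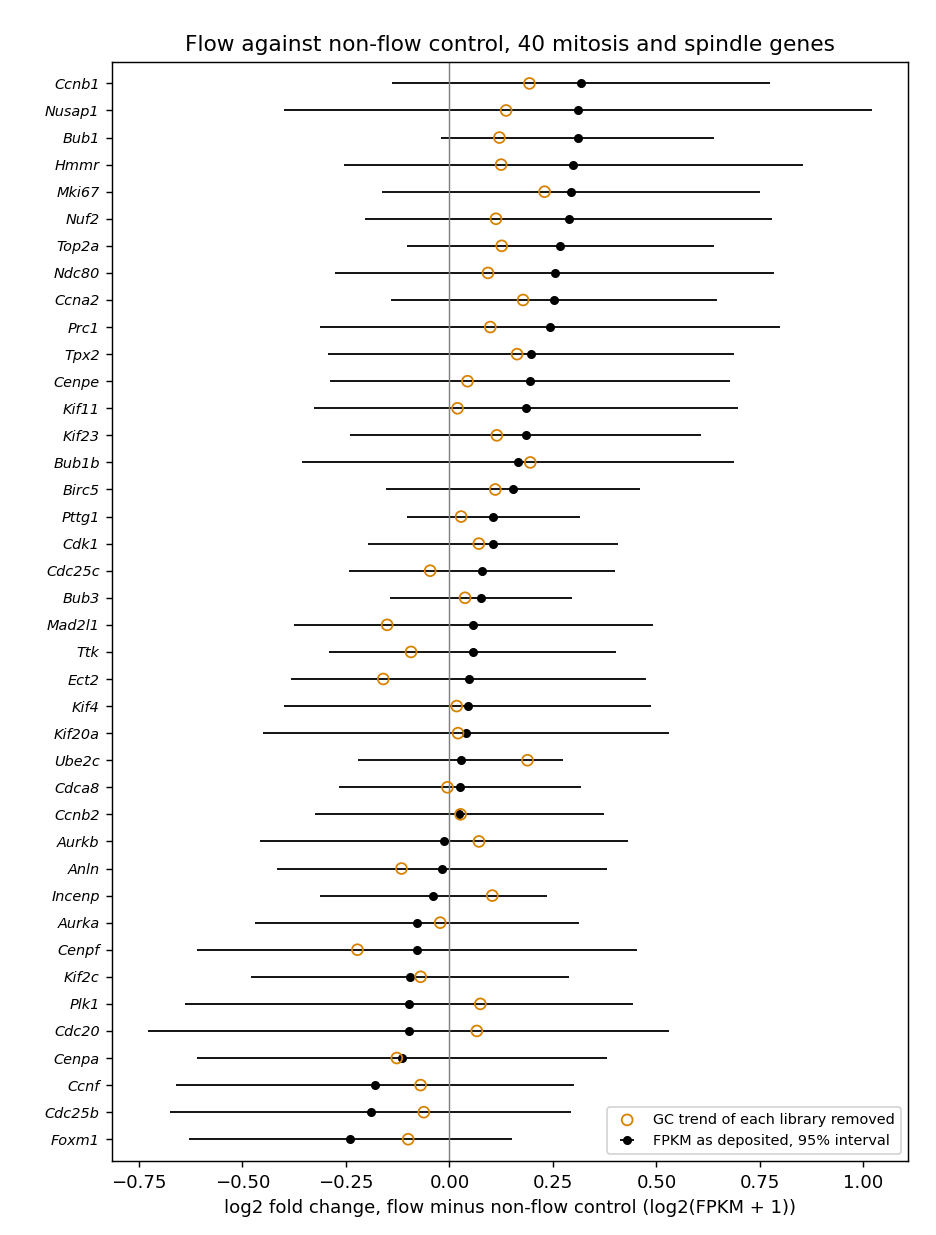
Log2 fold change of each gene, flow minus non-flow control, on log2(FPKM + 1), with its 95% interval from limma (filled points and lines) and after the GC trend of each library was removed (open circles). The filled points run from -0.24 (Foxm1) to 0.32 (Ccnb1), and every interval includes 0.

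Cyclins, CDK1 and its activators come first in the order of mitosis. Ccnb1 encodes cyclin B1, the main partner of CDK1 at mitotic entry. It lies on chromosome 13 at 100778650 to 100786570 (minus strand, GRCm38). It had 38.0, 33.1 and 26.5 FPKM in flow libraries 1 to 3 and 31.4, 21.4 and 25.0 FPKM in control libraries 1 to 3. Flow 1 and 2 stood above all 3 controls, flow 3 stood below control 1, and the groups overlapped. The log2 fold change was 0.32 with SE 0.19, the largest of the 40 (limma, adjusted p = 0.575). Its transcript resembles 4 processed pseudogenes, at up to 99.2% identity, so reads could be split between them and its value is uncertain. Its log2 fold change was 0.19 once GC trends had been removed. Ccnb2, the second mitotic B cyclin, had 45.9, 38.1 and 43.3 FPKM in flow against 45.9, 34.5 and 45.4 FPKM in controls, a log2 fold change of 0.02. Ccnb1 stood at 0.769 ± 0.139 times the level of Ccnb2 in flow and at 0.618 ± 0.0666 times in controls (SD, n = 3 each).

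Cdk1, on chromosome 10 at 69335146 to 69352938 (minus strand), was the most abundant of the 40, with 359.5, 303 and 318 FPKM in flow and 349, 289 and 276 FPKM in controls. Library 1 was the highest in each group, and the log2 fold change was 0.11 (SE 0.12). Ccna2, cyclin A2, which acts in S phase and G2, had 179, 143 and 136 FPKM in flow and 146, 106 and 132 FPKM in controls (0.25, SE 0.16). Exosc9, which runs on the opposite strand, overlaps 12.5% of its exon bases. The phosphatases that activate CDK1 lay lower. Cdc25b averaged 15.7 ± 3.61 FPKM in flow and 17.8 ± 2.67 FPKM in controls, and Cdc25c 10.1 ± 0.746 and 9.59 ± 1.37 FPKM (SD, n = 3 each). Ccnf, cyclin F, a subunit of an SCF ubiquitin ligase, had 17.4, 12.3 and 16.9 FPKM in flow and 22.5, 15.5 and 15.5 FPKM in controls, with control 1 above the other 5.

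Foxm1, a forkhead transcription factor that activates G2/M genes, had the most negative log2 fold change of the 40. It lies on chromosome 6 at 128362967 to 128376146 (plus strand). It had 49.1, 37.1 and 54.9 FPKM in flow libraries 1 to 3 and 60.0, 50.8 and 54.7 FPKM in controls. Flow 1 and 2 stood below all controls and flow 3 stood between controls 3 and 1. The log2 fold change was -0.24 with SE 0.16 (limma, adjusted p = 0.601), and -0.10 once GC trends had been removed.

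Among the mitotic kinases and spindle assembly factors, the kinases had log2 fold changes nearer to 0. Plk1, Polo-like kinase 1, had 43.4, 31.7 and 43.4 FPKM in flow and 53.4, 31.5 and 43.8 FPKM in controls (log2 fold change -0.10, SE 0.22). Its transcript resembles the pseudogene Plk-ps1. Aurka, the Aurora kinase of the spindle poles, had 38.2, 29.6 and 36.5 FPKM in flow and 43.8, 31.1 and 35.7 FPKM in controls (-0.08, SE 0.16). In both kinases library 2 was the lowest of its group and control 1 the highest of the 6. Tpx2, which activates Aurora A on spindle microtubules, averaged 75.0 ± 11.5 FPKM in flow and 66 ± 15.0 FPKM in controls (SD, n = 3 each). Nusap1, a microtubule-bundling spindle protein, had 30.4, 24.4 and 15.2 FPKM in flow and 23.7, 14 and 17.3 FPKM in controls. Hmmr, a spindle-pole and hyaluronan-binding protein, had 22.8, 18.5 and 13.3 FPKM in flow and 17.7, 11.7 and 14 FPKM in controls. In both, flow 3 lay below controls 1 and 3, so the positive log2 fold changes of 0.31 and 0.30 rested on flow 1 and 2.

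The chromosomal passenger complex, which corrects faulty attachments and later acts at the cleavage furrow, had log2 fold changes of -0.04 to 0.15. Its kinase Aurkb averaged 46.6 ± 9.78 FPKM in flow and 46.5 ± 5.54 FPKM in controls (SD, n = 3 each), a log2 fold change of -0.01. Birc5 had 181, 146 and 141 FPKM in flow and 149, 128 and 142 FPKM in controls, with flow 1 above the rest (0.15, SE 0.13). The scaffold Incenp averaged 38.3 ± 3.25 and 39.3 ± 3.79 FPKM in flow and controls. Cdca8 (borealin) averaged 57.2 ± 6.26 FPKM in flow and 56.1 ± 5.20 FPKM in controls.

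All 5 spindle checkpoint genes had a log2 fold change above 0, where 48.3% of all genes did. With GC trends removed Mad2l1 and Ttk were below 0, at -0.15 and -0.09. Of the 5, 0 were called, where 0.0167% of all genes were. Bub1, a checkpoint kinase at the kinetochore, had the smallest p of the 40. It lies on chromosome 2 at 127801122 to 127831865 (minus strand). It had 33.8, 31.5 and 26.1 FPKM in flow libraries 1 to 3 and 23.0, 22.6 and 27.6 FPKM in controls. Flow 1 and 2 stood above all controls, and flow 3 stood below control 3. The log2 fold change was 0.31 with SE 0.14 and a 95% interval of -0.02 to 0.64 (limma, unadjusted p = 0.0610, adjusted p = 0.559). It was 0.12 with GC trends removed and 0.03 in the other deposited table. Bub1b (BubR1), which binds and inhibits CDC20, had 45.9, 32.7 and 34.9 FPKM in flow and 44.2, 27.4 and 30.4 FPKM in controls (0.17, SE 0.21). Mad2l1 (MAD2), another inhibitor of CDC20, had 129, 81.7 and 92.8 FPKM in flow and 90, 104 and 92.2 FPKM in controls, with both the highest and the lowest of the 6 values in flow. Bub3 averaged 61.3 ± 4.30 FPKM in flow and 58.0 ± 2.23 FPKM in controls, and the kinase Ttk (MPS1) 12.1 ± 2.06 and 11.5 ± 0.941 FPKM (SD, n = 3 each). The row of Bub3 in the deposited table spans a far wider interval of chromosome 7 than the annotated gene, so its value may hold reads of neighbouring genes.

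Genes of the centromere and kinetochore divided by sign, with 3 of 5 above 0. Ndc80 and Nuf2, the dimer that binds microtubules, ranked the 6 libraries in the same order. Nuf2 had 36, 26.8 and 22.7 FPKM in flow and 26.6, 18.9 and 23.4 FPKM in controls (0.29, SE 0.20). Ndc80 had 20.3, 16.3 and 12 FPKM in flow and 15.5, 10.7 and 13.6 FPKM in controls (0.25, SE 0.22). In both the flow 3 value lay below controls 1 and 3. Cenpe, a kinesin of the kinetochore, averaged 18.3 ± 3.83 FPKM in flow and 15.8 ± 2.84 FPKM in controls (SD, n = 3 each). Cenpf, a large kinetochore protein of G2 and M, had 22.8, 25.4 and 23.5 FPKM in flow and 35.1, 24.4 and 18.8 FPKM in controls, so that the controls alone spanned the flow values. Cenpa, the centromeric histone H3 variant, averaged 20.7 ± 4.98 and 22.3 ± 4.03 FPKM in flow and controls.

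The spindle kinesins had log2 fold changes of -0.10 to 0.19. Kif11 (Eg5), which pushes spindle poles apart, had 26.5, 24.0 and 17.2 FPKM in flow and 24.1, 15.9 and 19 FPKM in controls. Kif2c (MCAK), which depolymerizes microtubules, had 19.7, 15.2 and 18.2 FPKM in flow and 22.4, 16.0 and 18.8 FPKM in controls. Kif4, a chromosome-bound kinesin, had 16.2, 16.4 and 13.2 FPKM in flow and 18.9, 12.1 and 13.8 FPKM in controls. In each of the 3 kinesins flow 3 lay below controls 1 and 3. Kif11 and Kif2c have near copies elsewhere in the genome, as do Cdc20 and Ndc80.

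In the group of anaphase genes, Cdc20, the APC/C activator that triggers anaphase, had 69.9, 40.8 and 52.4 FPKM in flow and 76.6, 45.7 and 52.6 FPKM in controls (-0.10, SE 0.26). Library 1 was high and library 2 low in both groups. Ube2c, the ubiquitin-conjugating enzyme of the APC/C, had 139.8, 134 and 163 FPKM in flow and 146, 137 and 145 FPKM in controls (0.03, SE 0.10). Tnnc2, which runs on the opposite strand, overlaps 22.8% of its exon bases. With GC trends removed the 3 flow values of Ube2c lay above the 3 controls, with a log2 fold change of 0.19 (limma, unadjusted p = 0.0355, adjusted p = 0.719). Pttg1 (securin), the inhibitor of separase, had 81.2, 87.9 and 77.5 FPKM in flow and 76.9, 73.6 and 78.2 FPKM in controls. It had a narrow spread (0.11, SE 0.09), and its flow 3 value lay between controls 1 and 3.

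Cytokinesis genes had log2 fold changes of -0.02 to 0.24, with 4 of 5 above 0. Prc1, which bundles the central spindle, had 102, 69.9 and 69.6 FPKM in flow and 88.7, 57.7 and 58.0 FPKM in controls (0.24, SE 0.23). In each group library 1 stood well above the other two. Anln (anillin), the scaffold of the contractile ring, had 66.1, 58.5 and 51.3 FPKM in flow and 72.6, 51.1 and 55.5 FPKM in controls (-0.02, SE 0.16). Ect2, the exchange factor that activates RhoA at the furrow, had 54.6, 36.9 and 35.7 FPKM in flow and 43.3, 38.5 and 39.1 FPKM in controls, with flow 1 above and flow 2 and 3 below all controls. The kinesins Kif23 (MKLP1) and Kif20a (MKLP2) averaged 22.7 ± 2.24 and 23.8 ± 4.54 FPKM in flow, against 20.1 ± 4.47 and 23.2 ± 5.34 FPKM in controls (SD, n = 3 each). Kif20a shares 29.3% of its exon bases with Cdc23 on the opposite strand. The use of strand in counting is not given in the sources used here, so reads on the shared bases cannot be told apart. The same holds, for a smaller share of exon bases, for Kif4 (15.1%, with Pdzd11), Cdc25c (12.7%, with Gm3550) and Prc1 (11.1%, with Rccd1).

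The genes of mitotic chromosomes had the highest median of the roles, 0.28 over 2 genes. Top2a, topoisomerase II alpha, which untangles sister DNA, lies on chromosome 11 at 98992943 to 99024189 (minus strand). It had 215, 223 and 169.8 FPKM in flow and 193, 164 and 146 FPKM in controls. Flow 1 and 2 stood above all controls and flow 3 below control 1 (0.27, SE 0.15; limma, adjusted p = 0.566). Mki67, whose protein Ki-67 coats mitotic chromosomes and marks cycling cells, had 34, 32.6 and 24.4 FPKM in flow and 30, 20.3 and 23.6 FPKM in controls, again with flow 1 and 2 above all controls and flow 3 below control 1 (0.29, SE 0.19). With GC trends removed the log2 fold changes were 0.13 for Top2a and 0.23 for Mki67.

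Within each group, libraries differed from each other across most of the 40 genes. The deviation of each gene from its mean over the 6 libraries, on log2(FPKM + 1), had a median of 0.23, -0.06 and -0.06 in flow libraries 1 to 3 and of 0.15, -0.22 and -0.07 in control libraries 1 to 3. Flow 1 was above the gene's mean in 36 of 40 genes and control 1 in 37, whereas control 2 was above it in 2. The highest of the 6 values was in flow 1 for 20 genes and in control 1 for 15. The lowest was in control 2 for 22 genes and in flow 2 for 13. In the other deposited table flow 1 (0.26) and control 1 (0.13) were again highest and control 2 (-0.20) lowest, and control 3 was at -0.06. Control 1 was by far the shallowest library of that table. The other two flow columns there, whose libraries are not known, were at -0.13 and -0.02. The labels put the replicates on separate days without naming the day of any library.

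**Figure D4:**
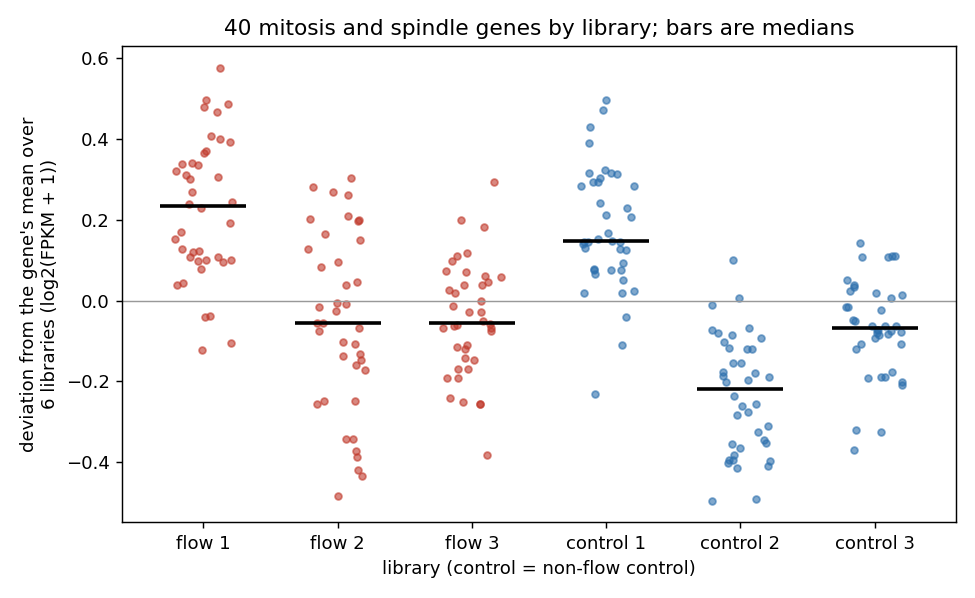
Deviation of each of the 40 genes (points) from its own mean over the 6 libraries, on log2(FPKM + 1), in each flow and non-flow control library, with the median as a bar. Flow 1 (median 0.23) and control 1 (0.15) lie above 0, and control 2 (-0.22) lies below it.

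Sequencing depth differed more within the flow group than within the controls. Estimated from how the low FPKM values step, it was 11020000, 5760000 and 19230000 reads in flow and 17910000, 18080000 and 19010000 in controls. The lowest estimate of reads behind any of the 40 genes was 148, for Cdc25c in flow 2, a counting error of 8.2%. In the median gene it was 2.2% to 4.0% per library, so counting error was small beside the spread between libraries. These figures cover counting error only. Of the osteocyte markers, Pdpn had 357.5 to 420.4 FPKM, Gja1 413.6 to 503.2 FPKM and Phex 4.06 to 7.46 FPKM. Sost, Mepe and Fgf23 were listed at 0 in all 6 libraries, and Dmp1 was at most 0.0354 FPKM. The endothelial markers summed to at most 0.152 FPKM in flow and 0.0922 FPKM in controls. The leukocyte marker Ptprc was at most 0.0142 FPKM, although Ctsk, of the osteoclast list, had 165 to 216 FPKM. The osteoblast list summed to 117 to 178 FPKM in flow and 160.1 to 193 FPKM in controls. Of this, Col1a1 alone had 105 to 169 FPKM, while Sp7 was at most 0.388 FPKM and Ibsp at most 0.0485 FPKM.

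The size and sign of a gene's log2 fold change went with the GC content of its transcript. The longest transcripts of the 40 genes had 40.1% to 56.0% GC. Across the 40 genes the log2 fold change correlated with GC at r = -0.70 (Spearman rho = -0.70), a description over genes measured in the same 6 libraries. Across 10460 protein-coding genes tested the values were r = -0.54 and rho = -0.60, so the trend was not limited to mitosis genes. The 20 mitosis genes of lower GC, up to 46.6%, included 18 above 0, at a median of 0.22. The 20 of higher GC, from 47.4%, had a median of 0.01 with 10 above 0. After the trend on GC was removed in each library, these medians were 0.10 and 0.03, and r was 0.05. The SD of the log2 fold change over the 40 genes was then 0.11, against 0.16 before. The removal subtracts the fitted trend on GC, so a weaker r and a smaller SD largely follow from the method. It would also take out a difference between groups that followed GC. Bub1, Nuf2, Hmmr and Nusap1, all at 41.0% to 41.8% GC, were at 0.11 to 0.14 after removal, against 0.29 to 0.31 before. Mad2l1 and Ect2, of still lower GC, were at -0.15 and -0.16 after it, and Cenpf was at -0.22.

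The trend differed by library. In the lower-GC genes the median deviation was 0.33, 0.12 and -0.13 in flow 1 to 3 and 0.13, -0.34 and -0.09 in controls 1 to 3. In the higher-GC genes it was 0.11, -0.17 and 0.04 in flow and 0.26, -0.18 and -0.004 in controls. Flow 1 and 2 thus stood higher in the lower-GC genes than in the higher-GC genes, and flow 3 stood lower. Flow 1 and 2 are also the shallowest libraries. The part of GC content and depth in the differences between groups was not tested beyond the removal of the trend.

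**Figure D5:**
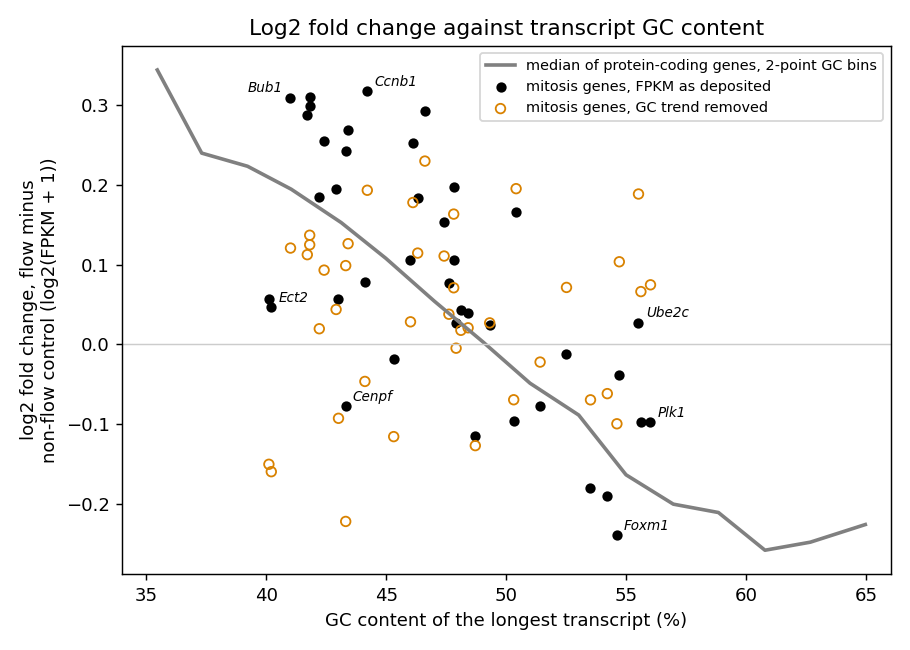
Log2 fold change, flow minus non-flow control, on log2(FPKM + 1) against the GC content (%) of the longest transcript, for the 40 genes as deposited (filled) and with the GC trend of each library removed (open); the line is the median of protein-coding genes in GC bins. As deposited the filled points fall with GC like the line (r = -0.70). The open points do not (r = 0.05), which largely follows from the removal itself.

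Other genes of the cell cycle gave a background to these values, and 0 were called in any list. Of 48 further G2/M and mitosis genes, 30 were above 0 with a median of 0.12, and the median was -0.01 with GC trends removed. In that list 4 had an unadjusted p under 0.05 and were higher in flow (limma), and 1 was lower, where the shares of all genes were 3.70% and 4.82%. Removal of GC trends left 0 higher and 0 lower. With 1 library left out 0 to 12 were higher, the 12 without flow 3, where 26.4% of all genes had such a p in either direction. Cks2, a CDK-binding subunit, had 58.3, 50.0 and 50.7 FPKM in flow and 47.0, 38.4 and 40.5 FPKM in controls, with no overlap (0.33, SE 0.12; limma, adjusted p = 0.559). Zwint, a kinetochore protein, had 226, 230.5 and 185 FPKM in flow and 181, 176 and 159 FPKM in controls, also with no overlap. Trip13, an ATPase that dismantles checkpoint complexes, averaged 21.9 ± 2.47 FPKM in flow and 17.9 ± 0.310 FPKM in controls (SD, n = 3 each). Its groups did not overlap either. Of the 48 genes 6 were higher and 2 lower in flow without overlap, where the shares of all genes were 7.12% and 8%. With GC trends removed the log2 fold change was 0.15 for Zwint, against 0.31 before, and 0.17 for Trip13, against 0.28. That of Cks2 was 0.23, against 0.33 before.

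Genes of G1, of DNA replication and of the APC/C are given beside the 48.3% of all genes that were above 0. Of 12 G1 and G1/S cyclins and CDKs 4 were above 0, with a median of -0.08, and of 20 DNA replication genes 8 were above 0, with a median of -0.05. E2f1, a transcription factor of S-phase genes, had 25.8, 23.7 and 33.9 FPKM in flow and 34.2, 36 and 38.6 FPKM in controls (-0.39, SE 0.15). Ccnd3, cyclin D3, averaged 54.4 ± 12.6 FPKM in flow and 75.3 ± 13.4 FPKM in controls, and Cdk4, the kinase it activates, 872 ± 86.2 and 986 ± 8.80 FPKM. Mcm7, a subunit of the replicative helicase, had 80.7, 72.4 and 98.5 FPKM in flow and 114, 103 and 109 FPKM in controls (-0.38, SE 0.13). The values of E2f1 and Mcm7 did not overlap between groups, and neither gene was called (limma, adjusted p = 0.559 for each). Those of Cdk4, Mcm10, Mcm5 and Anapc2 did not overlap either. Lower in flow without overlap were 2 of 12 G1 genes, 4 of 20 replication genes and 2 of 17 APC/C genes. Over all genes this share was 8%. Mcm10 and Mcm5, a replication factor and another helicase subunit, averaged 27.4 ± 2.37 and 84.3 ± 8.90 FPKM in flow, against 31.9 ± 1.87 and 96.7 ± 2.56 FPKM in controls (SD, n = 3 each). Of 17 APC/C subunits and regulators 7 were above 0, with a median of -0.08. Fzr1 (CDH1), the activator of the APC/C in late mitosis and G1, had 42.2, 44.6 and 63.2 FPKM in flow and 68.9, 62.5 and 65.1 FPKM in controls (-0.40, SE 0.16). The APC/C subunits Anapc2 and Anapc10 had log2 fold changes of -0.24 and 0.38. With GC trends removed most of the log2 fold changes of these named genes were nearer to 0. They were -0.18 for E2f1, -0.29 for Ccnd3, -0.08 for Cdk4, -0.27 for Mcm7, -0.18 for Fzr1, -0.09 for Anapc2 and 0.16 for Anapc10. Mcm5 was at -0.13, against -0.20 before, but Mcm10 was at -0.23, against -0.22. The list medians were then -0.09 for G1 and G1/S genes and -0.06 for DNA replication genes, both further from 0 than before. The APC/C median was -0.06.

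The DREAM, MuvB, MYB and E2F repressor genes showed no common direction. Of these 15 genes 8 were above 0, with a median of 0.03. Rbl1 (p107), a pocket protein of DREAM, averaged 24.4 ± 2.66 FPKM in flow and 20.1 ± 1.61 FPKM in controls. E2f4, the E2F of DREAM, had 29.8, 32.6 and 46.7 FPKM in flow and 46.3, 47.1 and 46.1 FPKM in controls, with flow 3 at the level of the controls (-0.37, SE 0.17). Rbbp4, the histone-binding subunit of MuvB, averaged 122 ± 11.7 and 111 ± 9.86 FPKM in flow and controls (SD, n = 3 each). Of 14 CDK inhibitors and antiproliferative genes 11 were tested and 3 were above 0, with a median of -0.09. Cdkn2d (p19INK4d), an inhibitor of CDK4, had 7.88, 8.12 and 7.28 FPKM in flow and 15.2, 8.83 and 12 FPKM in controls, with no overlap (-0.54, SE 0.19; limma, adjusted p = 0.559). Of the 11 tested 2 were lower without overlap, where 8% of all genes were. Btg1, an antiproliferative factor, had 71.7, 114 and 98.5 FPKM in flow and 49.1, 59.4 and 78.9 FPKM in controls (0.59, SE 0.23). Ccng1, a cyclin induced by p53, averaged 29.3 ± 6.40 and 21.9 ± 0.664 FPKM in flow and controls. With GC trends removed the log2 fold changes were 0.10 for Rbl1 (0.26 before), -0.20 for E2f4 and 0.18 for Ccng1 (0.38 before). Rbbp4 was then at 0.03, against 0.13 before. Btg1 and Cdkn2d kept more of their size, at 0.45 and -0.37, against 0.59 and -0.54 before.

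Tubulins, of which the spindle is built, lay mostly below 0, with 2 of 8 above 0 and a median log2 fold change of -0.13, and the median was 0.01 with GC trends removed. Tuba1b, a main alpha tubulin of dividing cells, had 148, 167 and 199 FPKM in flow and 233, 228 and 212 FPKM in controls, with no overlap (-0.40, SE 0.13; limma, adjusted p = 0.559), and its log2 fold change was -0.24 with GC trends removed. Of the 8 tubulins 1 was lower without overlap, where 8% of all genes were. Tubb6 and Tuba1a averaged 142 ± 16.2 and 24.1 ± 7.93 FPKM in flow, against 164 ± 6.37 and 30.2 ± 2.29 FPKM in controls (SD, n = 3 each). Tubulin genes resemble each other closely, so their values are uncertain.

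In the other deposited table, which was far shallower, 0 of the 40 mitosis genes were called (limma) and 29 were above 0, with a median of 0.09. Control 1 there had an estimated 690000 reads, against 3610000 to 4720000 in the other libraries, so the control values there are uneven in depth. Cenpa had -0.68 there, against -0.11 in the deeper table, and Ndc80 had 0.56, against 0.25. Nusap1 and Mki67 had 0.56 and 0.37, against 0.31 and 0.29. Foxm1 had -0.36, against -0.24. Kif4 was higher in all 3 flow libraries than in any control in that table (0.29), and Cdc25c was lower (-0.20), where in the deeper table the groups overlapped for both. Groups did not overlap in 12.6% of all genes of the shallower table, a larger share than 2 of 40.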

How the data were processed

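RNA from 3 flow and 3 non-flow control cultures of MLO-Y4 cells was sequenced, per the labels' protocols as single-end reads of 50 cycles, with replicates collected on separate days. Per the submitters' processing notes the tools were Cufflinks 2.2.1, TopHat2 2.0.9 and CASAVA 1.8.2, and the build was mm10. For annotation, counting settings and strand, nothing is given in the sources used here. The authors deposited 2 tables of FPKM per gene and library, and no counts. Tests used the table whose 6 columns name the libraries. In the other one, with 38991 rows, 2 flow columns match no title and were used only as flow, and 22 repeated identifiers were reduced to the row with the higher mean.

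All genes averaging 1 FPKM or more were tested on log2(FPKM + 1), a scale that understates the change of low genes, with limma 3.58.1 in R 4.3.3 (eBayes with trend, two-sided, no covariate) and Benjamini-Hochberg adjustment over all 11957 genes, at a threshold of 0.05. The scripts were tested on simulated data. An exact permutation test of 3 against 3 cannot go below 0.1, so none was run. The p-values rest on 3 cultures per group, all of 1 line.

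Members and lists were chosen with earlier results of these data known. All 40 genes are named; from each other list the 3 with the smallest p are named. The GC trend was removed per library with lowess (span 0.3) in protein-coding genes. Transcripts, GC and coordinates came from GENCODE M21 (37604 of 39174 identifiers matched), near copies from blastn 2.17.0 (at least 90% identity over 30% of the transcript), and promoters from RefSeq (GRCm38.p6). Depth was estimated as the read number that makes low FPKM values whole, with 200 nt taken off transcript lengths; this value was assumed. In the other table it was 690000 reads in control 1 and 3610000 to 4720000 in the other libraries.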

Additional observations from a re-analysis of the deposited data

How the results depend on the processing

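Under all 15 alternatives 0 of the 40 mitosis genes were called (limma), but the direction of many uncalled genes changed. Of all genes tested, 0 were called with GC trends removed, 3 in the other deposited table and 3 to 14 with 1 library left out. Among the 40 genes the sign differed in 9 with GC trends removed and in 9 in the other deposited table. It differed in 16 with flow 3 alone against the controls, and in 1 to 9 when 1 library was left out. It differed in 0 with a pseudocount of 0.1, without the filter, with quantile normalization, with the block or over protein-coding genes alone, a setting chosen after the data were seen. The median over the 40 was 0.055 with GC trends removed, 0.092 in the other table and 0.00235 with flow 3 alone. Leaving out 1 library gave 0.00698 (without control 2) to 0.16 (without control 1), including 0.028 without flow 1, 0.12 without flow 2 and 0.14 without flow 3. The count above 0 was then 20 to 37.

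Genes with an unadjusted p under 0.05 and higher in flow numbered 1 with GC trends removed (Ube2c), 1 with the block as well (Ube2c), and 0 to 2 with 1 library left out (Bub1 and Top2a without flow 3, where 26.4% of all genes had such a p in either direction, and Bub1 without control 3, where 5.18% did). Genes with no overlap and higher in flow numbered 1 with GC trends removed, 1 with the block as well, 1 in the other table, 3 with flow 3 alone and 0 to 10 with 1 library left out. The 10 came without flow 3, where 45.6% of all genes did not overlap in either direction, and 8 came without control 1, where 22.7% did not. The share of all genes was 49.1% with flow 3 alone, 12.6% in the other table and 12.3% with GC trends removed. Those lower in flow numbered 1 in the other table, 2 with flow 3 alone and 0 to 1 with 1 library left out. The cause was not tested. With 1 flow library, it was assumed to vary like the controls.

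Adjacent titles (3 and 4, 11 and 12, 19 and 20) were tried as a replicate block. Deviations of adjacent libraries correlated at 0.043, 0.023 and 0.064 (Pearson) and at 0.24, 0.30 and 0.28 (Spearman), across genes, and on the rank measure every library went best with its adjacent title. The pairing was taken as not established. With the block, 2 genes had an unadjusted p under 0.05, Top2a and Prc1, against 0 without it, where the shares of all genes were 11.7% and 8.52%, and 0 were called (limma). The SE of Prc1 was 0.076 with the block and 0.23 without it, and the median SE of the 40 genes was 0.11 and 0.18, so the spread used in the report would be too wide a measure if adjacent titles share a day.

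Other lists had 0 calls. The tubulin median was 0.0082 with GC trends removed, also with the block. With 1 library left out the medians ran from -0.17 to -0.051 for G1 and G1/S genes, from -0.26 to 0.10 for CDK inhibitors, from -0.098 to 0.00211 for the APC/C, from -0.23 to -0.075 for tubulins and from -0.011 to 0.20 for the other G2/M genes. In the deeper table the estimated depth was lowest in flow 2, at 5760000 reads. Counting error was highest there, at 4.0% in the median gene. The part of depth in the spread between libraries was not tested.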
